A study of Mus musculus with 18 samples.

Results

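The transition from naive follicular to germinal center B cells was measured by RNA-seq in Dnmt3-sufficient mice, with 3 libraries of naive B cells (nB) and 3 libraries of germinal center B cells (GCB), 6 of the 18 libraries of the series. The other 12 libraries held the same stages from Dnmt3-deficient mice and bone marrow plasma cells of both genotypes. All 6 libraries came from Dnmt3afl/flDnmt3bfl/fl mice on the background B6;129S4-Dnmt3atm3.1Enl Dnmt3btm5.1Enl/Mmnc, in which loxP sites flank parts of Dnmt3a and Dnmt3b but no Cre recombinase is present, so that both enzymes remained intact. Mice were 8 to 12 weeks old at the start of experiments. The nB were B220+ GL7- Fas- cells from lymph nodes of unimmunized mice. The GCB were B220+ GL7+ Fas+ cells from lymph nodes that also bound phycoerythrin (PE), a fluorescent algal protein that served as the antigen. GCB were taken 30 days after immunization with PE in complete Freund's adjuvant, and each GCB library pooled cells of 2 mice. RNA of 5000 sorted cells was used per library, and in each group libraries 1 and 2 came from females and library 3 from a male. Differentiation stage, immunization and selection for antigen binding changed together between the groups and cannot be told apart.

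Naive follicular B cells are resting lymphocytes that recirculate through lymph nodes by means of chemokine receptors, adhesion molecules and sphingosine-1-phosphate receptors. After they meet antigen and receive T cell help, some form germinal centers, where they divide fast, mutate their immunoglobulin genes and compete for survival signals. Cells in the dark zone of a germinal center divide and mutate, and cells in the light zone test their receptors against antigen held by follicular dendritic cells.

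Levels are given as FPKM, that is, read counts scaled by the exon length of the gene and by the counted reads of the library, so that levels of different genes can be compared per length. Differences between the groups are GCB minus nB in log2(FPKM + 1), where the added 1 makes changes of weakly expressed genes look smaller, and are given ± SE with n = 3 per group. The deposited values corresponded to 6692516 to 8987922 reads per nB library and 7644544 to 8903872 per GCB library. The nB libraries were less alike (Pearson r across genes from 0.892 to 0.911) than the GCB libraries (r from 0.951 to 0.963), and r between the groups lay between 0.747 and 0.770. The median SD of log2(FPKM + 1) over genes was 0.43 in nB and 0.28 in GCB. The pan-B marker Ms4a1, which encodes CD20, stood at 581, 554 and 582 FPKM in nB, against 512, 576 and 547 FPKM in GCB, ranges that overlapped. Ms4a1 was not typical of the 8 B lineage genes tested. Of these, 7 were lower in every GCB library than in every nB library, which held for 27.2% of all tested genes. The median difference of the 8 was -0.97, against -0.14 for all tested genes.

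Among 10326 genes with FPKM above 1 in at least 2 of the 6 libraries, 1297 were higher in GCB (12.6% of those tested) and 1667 were lower (16.1%) by limma at an adjusted p of at most 0.05 and a change of at least 2-fold. Counts of gene lists below are to be read beside these 12.6% and 16.1%, since a list near them does not differ from genes at large. The 3 GCB libraries lay entirely above the 3 nB libraries in 22.2% of tested genes and entirely below them in 27.2%, or 49.4% in all. Of the 2964 genes called in either direction (28.7%), 2935 did not overlap between the groups. The gains reached further than the losses, since 150 genes rose by at least 4 on the log2 scale and 56 fell by as much. No read was found in any nB library for 126 of the genes called higher, and none in any GCB library for 74 of those called lower. The median difference of all tested genes was -0.14. Scaling by median of ratios in place of total reads moved single genes by a median of 0.14 and gave 1550 higher and 1422 lower genes. Where a gene fell, fewer cells with its RNA and less RNA per cell cannot be told apart in these bulk samples.

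**Figure D1:**
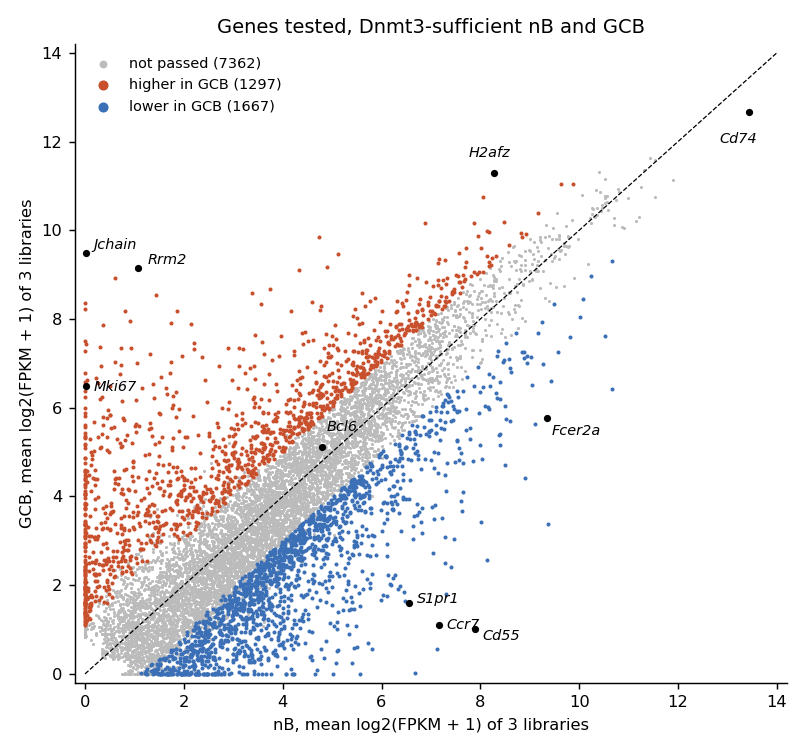
Mean log2(FPKM + 1) of the 3 GCB libraries (vertical axis) against that of the 3 nB libraries (horizontal axis), with 1 point per tested gene, coloured by whether the gene was called higher, lower or neither. The 1297 genes called higher lie above the diagonal, many at the left edge where nB had few or no reads, and the 1667 called lower lie below it.

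The largest gains were led by Jchain, which encodes the chain that joins IgM and IgA into polymers, at 0, 0 and 0.0529 FPKM in nB, against 609, 687 and 882 FPKM in GCB. The nB level rested on a single read, and the difference was 9.46 ± 0.23 (SE, n = 3 per group, adjusted p = 9.01e-08). Gcsam, a germinal center signaling protein that restrains B cell movement, had no read in nB and stood at 297, 272 and 327 FPKM in GCB, at least 2569-fold higher with the nB libraries set to the floor of 3 reads each. Among the 12 largest gains were also Rrm2, Ube2c, Cdca3, Ccnb1, Ccnb2, Pbk and Spc24, all with roles in DNA synthesis or mitosis, together with 2810417H13Rik, whose product binds PCNA, and a gene listed without a symbol. Their differences lay between 7.06 and 8.31. Genes whose groups overlapped had been left out of this ranking.

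The largest losses were led by Cd55, the complement decay-accelerating factor, at 252, 249 and 210.3 FPKM in nB, against 0.718, 0.507 and 2.18 FPKM in GCB, a difference of -6.88 ± 0.32. Reads of Cd55 may be shared with its close copy Cd55b, which makes its level uncertain. Cnn3, an actin-binding calponin, was at 104, 93.0 and 107 FPKM in nB, against 0, 0 and 0.0531 FPKM in GCB (-6.65 ± 0.29). Ccr7, the receptor for the T zone chemokines, fell from 148, 119.7 and 161 FPKM to 1.88, 2.52 and 0 FPKM (-6.05 ± 0.45). Sdc4, a heparan sulfate syndecan, and Plaur, the urokinase receptor, fell, with differences of -5.55 and -5.50. Il10rb (a chain of the interleukin-10 receptor), Rin3 (an activator of the endosomal GTPase Rab5), Rgs18 (a regulator of G proteins) and Fcgrt (the neonatal Fc receptor) had differences between -5.25 and -5.02. Tyrobp and Siglech, which also stood among the 12 largest losses, are genes of myeloid, NK and plasmacytoid dendritic cells and are described with the markers of those cells.

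Of the 14 naive or follicular B cell markers tested, all 14 fell, with a median difference of -3.37 against -0.14 for all tested genes. Fcer2a, the low-affinity IgE receptor CD23, was at 559, 634 and 767 FPKM in nB, against 38.4, 64.0 and 63.3 FPKM in GCB. It kept the highest GCB level among the markers that fell by at least 3, whereas Cd38, an ectoenzyme of resting B cells, fell from 190.2, 159 and 159 FPKM to 2.92, 5.15 and 5.09 FPKM. Bcl2, the survival factor, fell from 23.8, 36.3 and 24.2 FPKM to 0.276, 0.0169 and 0.657 FPKM (-4.47 ± 0.37). The smallest losses of the list were those of Cxcr5 (-1.56 ± 0.17) and of the antiproliferative gene Btg1 (-1.63 ± 0.15), which stayed at 68.2 to 88.9 FPKM in GCB.

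Of 14 germinal center markers tested, 11 rose and Lmo2 fell, with a median difference of 4.24. Mki67, the proliferation marker Ki-67, was at 0.0445, 0 and 0 FPKM in nB, against 82.5, 101.2 and 82.5 FPKM in GCB (6.46 ± 0.30). Mef2b, a transcription factor of germinal centers, was at 3.41, 0.0932 and 6.75 FPKM in nB, against 235, 228 and 253 FPKM in GCB (6.16 ± 0.59). Basp1 and Mybl1 (A-MYB) went from below 0.1 FPKM in every nB library to 17.9 to 20.4 and 12.5 to 14.6 FPKM. Fas, at about 198 FPKM or more in each GCB library, was part of the sort and its gain is no finding, although it is counted among the 11. Bcl6, the transcriptional repressor that defines the germinal center program, did not pass, with 37.3, 28.5 and 17.8 FPKM in nB and 30.5, 37.2 and 34.3 FPKM in GCB. Cxcr4, the dark zone chemokine receptor, had a difference of 0.90 ± 0.35 that did not pass either (adjusted p = 0.0716), although its GCB libraries lay above its nB libraries, and it passed by limma without nB library 1 (1.22, adjusted p = 0.0179), with median of ratios scaling (1.04, adjusted p = 0.0403) and with library weights (1.00, adjusted p = 0.0342). Lmo2, a LIM-domain cofactor often used as a germinal center marker, was at 56.2, 57.2 and 47.1 FPKM in nB, against 8.22, 14.7 and 15.5 FPKM in GCB, opposite to the other markers that passed.

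**Figure D2:**
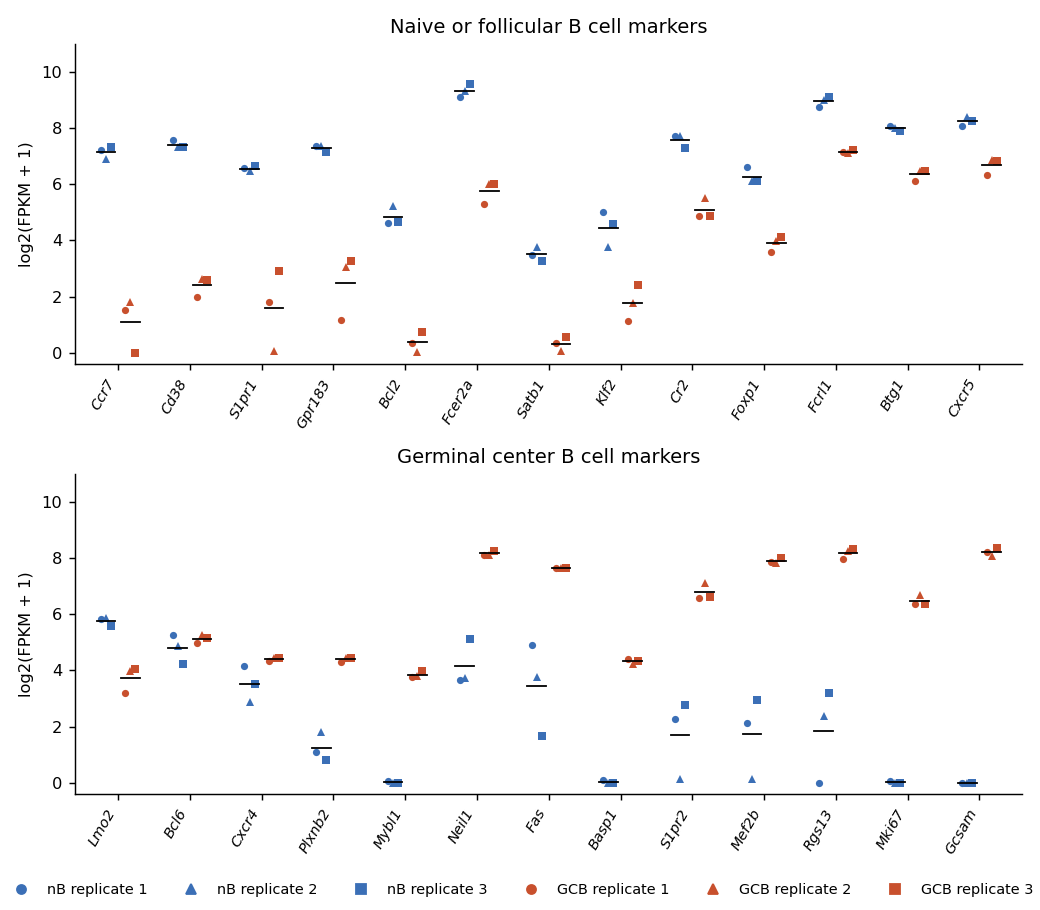
Levels of 13 of the 14 naive or follicular markers (top) and 13 of the 14 germinal center markers (bottom) as log2(FPKM + 1), with a symbol per library, nB in blue and GCB in red, and a line at the mean of 3 libraries. The 13 naive markers plotted lie lower in every GCB library than in every nB library, while Bcl6 overlaps and Lmo2 lies lower in GCB. Of all tested genes, 27.2% lie lower in every GCB library than in every nB library.

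Cell division genes made up the most uniform gain. Of 59 genes of mitosis and chromosome segregation tested, 58 rose, none fell, and the median difference was 4.94, or 5.16 with genes unread in nB set to their lower bound. Ccnb1 and Ccnb2, the B-type cyclins that drive entry into mitosis, and Plk1 and Cdc20, a mitotic kinase and an activator of the anaphase-promoting complex, were close to 0 in nB. Ccnb1 was at 0, 1.75 and 6.29 FPKM in nB, against 382, 332 and 407 FPKM in GCB (7.10 ± 0.58). Plk1 was at 0, 3.55 and 0 FPKM in nB, against 171, 138 and 176 FPKM in GCB (6.61 ± 0.54). Cdk1, the partner kinase of these cyclins, had no read in nB and stood at 108, 95.1 and 124 FPKM in GCB, at least 796-fold higher. The exception was Pttg1, securin, at 52.2, 55.0 and 42.1 FPKM in nB, against 34.3, 43.9 and 37.1 FPKM in GCB (-0.36 ± 0.20, adjusted p = 0.191).

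Of 43 DNA replication genes tested, 38 rose and none fell, with a median difference of 2.65. Rrm2, the regulated subunit of ribonucleotide reductase, was at 0, 4.26 and 0.766 FPKM in nB, against 598, 569 and 527 FPKM in GCB (8.07 ± 0.50). The replicative helicase subunit Mcm5 was at 32.0, 30.4 and 18.9 FPKM in nB, against 352, 319 and 272 FPKM in GCB (3.52 ± 0.22). The sliding clamp Pcna was already at 88.3 to 98.5 FPKM in nB and reached 467 to 558 FPKM in GCB (2.42 ± 0.12). Cdt1, which loads the helicase, was an exception at 7.30 to 12.6 FPKM in nB and 9.60 to 12.5 FPKM in GCB (0.17 ± 0.31). Mcm5 and Pcna thus had a level in nB that Ccnb1 and Plk1 lacked, but Rrm2 lacked it as well and Pttg1 of the mitosis list had one.

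The sequences just upstream of 6 of these genes are shown because genes of mitosis and of replication are known to carry different promoter elements, a CCAAT box read by NF-Y with a CHR element (TTTGAA or TTCGAA) in mitotic genes and E2F elements (TTCCCGC or TTGGCGC) in replication genes. Each run is the 150 bases before the annotated start, 5′ to 3′ on the strand of the gene, from RefSeq on GRCm38.p6, with matches to these 5 motifs on either strand in capitals. The windows are chr13:100786487-100786636 (minus strand) for Ccnb1, chr9:70421555-70421704 (minus) for Ccnb2, chr4:118437344-118437493 (minus) for Cdc20, chr7:122159285-122159434 (plus) for Plk1, chr8:75109359-75109508 (plus) for Mcm5 and chr12:24708104-24708253 (plus) for Rrm2.
Ccnb1: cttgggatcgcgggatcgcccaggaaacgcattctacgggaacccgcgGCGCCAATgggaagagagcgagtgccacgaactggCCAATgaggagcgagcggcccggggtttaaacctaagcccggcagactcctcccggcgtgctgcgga
Ccnb2: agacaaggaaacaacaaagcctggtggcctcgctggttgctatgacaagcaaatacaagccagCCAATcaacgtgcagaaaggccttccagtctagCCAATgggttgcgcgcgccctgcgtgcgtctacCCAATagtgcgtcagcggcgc
Cdc20: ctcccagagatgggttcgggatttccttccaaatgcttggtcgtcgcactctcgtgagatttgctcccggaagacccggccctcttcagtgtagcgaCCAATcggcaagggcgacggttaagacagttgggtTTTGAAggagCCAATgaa
Plk1: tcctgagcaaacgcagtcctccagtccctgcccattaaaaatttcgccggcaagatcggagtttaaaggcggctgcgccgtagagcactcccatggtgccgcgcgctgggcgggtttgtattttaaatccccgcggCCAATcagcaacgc
Mcm5: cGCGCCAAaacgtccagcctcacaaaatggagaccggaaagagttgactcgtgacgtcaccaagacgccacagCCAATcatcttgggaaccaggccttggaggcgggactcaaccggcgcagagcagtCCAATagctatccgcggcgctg
Rrm2: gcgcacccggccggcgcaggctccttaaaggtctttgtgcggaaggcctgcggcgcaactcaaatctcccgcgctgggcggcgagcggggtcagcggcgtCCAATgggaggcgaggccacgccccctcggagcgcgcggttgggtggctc

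All 6 windows held CCAAT, and in the shown windows TTTGAA stood only in that of Cdc20. Ccnb2 had a TTTGAA farther upstream, 167 to 162 bases before the start. Bases after the start were not searched, so motifs there would be missed and their absence from these genes cannot be told. Matches were counted at any position in the 250 bases, whatever the distance between motifs. In Ccnb1 the CCAAT overlapped a match to TTGGCGC on the other strand, and Mcm5 held such a match as well. Promoters were matched to genes by Entrez ID, which gave promoters for 49 of the 59 mitosis genes and 35 of the 43 replication genes. Over the 250 bases before the start, CCAAT on either strand was found in 36 of 52 promoters of the mitosis list (69.2%). It was found in 23 of 40 of the replication list (57.5%) and in 33.8% of all 32851 promoters. CCAAT together with TTTGAA or TTCGAA was found in 19 of the 52 mitosis promoters, 6 of the 40 replication promoters and 6.02% of all. TTCCCGC was found in 1 of 52, 8 of 40 and 3.82%, and TTGGCGC in 6 of 52, 4 of 40 and 1.97%. Among the 10428 promoters of tested genes, the shares were 36.2% for CCAAT, 4.97% for CCAAT with TTTGAA or TTCGAA, 7.04% for TTCCCGC and 3.53% for TTGGCGC. These matches describe letters in the windows and not binding.

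Among 22 tested cyclins, cyclin-dependent kinases, E2F factors and inhibitors, 9 rose and 4 fell, with a median of 0.77. Without GCB library 3, 5 rose, and without GCB library 1 or 2, 2 fell. Ccne2 and the repressor E2f8, both active around the start of S phase, rose by 4.38 ± 0.47 and 4.62 ± 0.43. The D-type cyclin Ccnd3 went the other way, at 34.0, 55.2 and 43.4 FPKM in nB and 22.1, 19.4 and 13.2 FPKM in GCB (-1.24 ± 0.28). Cdkn1b, the inhibitor p27, fell from 33.8, 20.6 and 15.04 FPKM to 1.36, 1.02 and 2.56 FPKM (-3.16 ± 0.41). Cdkn1a, the p53-induced inhibitor p21, was low in every library, with at most 3.24 FPKM.

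Of 18 quiescence factors tested, 13 fell and Klf4 rose, with a median of -1.67. Pdcd4, an inhibitor of translation, was at 148, 102 and 94.0 FPKM in nB, against 5.45, 9.31 and 10.03 FPKM in GCB (-3.65 ± 0.29). Klf2, which holds naive lymphocytes in a resting, recirculating state, fell from 31.1, 12.7 and 23.0 FPKM to 1.18, 2.45 and 4.29 FPKM. Klf4, of the same factor family, was at 0.0491, 0.215 and 0.439 FPKM in nB, against 3.21, 6.27 and 4.54 FPKM in GCB (2.18 ± 0.40), still a low level. Among 18 immediate early genes tested, 3 rose (16.7%, and 5 genes without nB library 2) and 4 fell (22.2%), with a median of 0.15. These shares were near those of all tested genes, 12.6% higher and 16.1% lower. Fos stood out with 8.71, 0 and 9.20 FPKM in nB and 126, 151 and 216 FPKM in GCB (5.12 ± 0.77), together with Dusp1 and Ppp1r15a. Nr4a1 and Egr3, induced by the B cell receptor, fell, with differences of -3.31 and -3.09. Some immediate early genes also respond to handling of tissue, and the labels give no sort times, so its part in the result was not tested.

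Of 21 genes of immunoglobulin mutation and switch repair tested, 11 rose and Smug1 fell, with a median of 1.18. Polh, the error-prone polymerase that makes A:T mutations, was at 0.290, 0.304 and 0.690 FPKM in nB, against 51.8, 49.2 and 68.2 FPKM in GCB (5.33 ± 0.32). Hmces, a sensor of abasic sites in DNA, rose from 31.8, 40.7 and 18.7 FPKM to 681, 525 and 532 FPKM. The uracil glycosylase Smug1 was low in both groups, at 4.26, 5.26 and 4.32 FPKM in nB and 1.48, 0.909 and 0.463 FPKM in GCB (-1.55 ± 0.39, adjusted p = 0.0122). Of 24 genes of the DNA damage checkpoint and homologous recombination tested, 13 rose and none fell, with a median of 1.52. Rad54l, which acts in strand exchange during recombination, rose by 5.07 ± 0.36, and the checkpoint kinase Chek1 rose by 4.44 ± 0.37. Trp53 was already high in nB, at 178 to 191 FPKM, and was at 214 to 242 FPKM in GCB, a difference of 0.28 ± 0.12 that did not pass.

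Among 25 homing and positioning genes tested, 13 fell and 6 rose, with a median of -1.24. The sphingosine-1-phosphate receptors changed in opposite directions. S1pr1, which guides egress from lymph nodes, was at 93.8, 87.5 and 99.9 FPKM in nB, against 2.52, 0.0432 and 6.51 FPKM in GCB (-4.97 ± 0.60). S1pr2, which confines cells to the germinal center, was at 3.77, 0.0929 and 5.77 FPKM in nB, against 95.5, 138 and 98.0 FPKM in GCB (5.07 ± 0.59). The S1pr2 level in GCB was therefore close to the S1pr1 level in nB. Gpr183, or EBI2, which draws B cells to the outer follicle, fell from 165, 163 and 142 FPKM to 1.26, 7.34 and 8.55 FPKM. Ccr6 fell by 3.72 on the log2 scale, while Cxcr5, the receptor for the follicular chemokine CXCL13, remained at 80.4, 116 and 114 FPKM in GCB. The G protein regulators Rgs1 and Rgs13, which dampen chemokine signals, rose from at most 8.27 FPKM in any nB library to 62.2 to 141 and 249 to 321 FPKM. Cxcr3, a receptor for interferon-induced chemokines, was at 2.42, 0 and 1.25 FPKM in nB, against 25.1, 25.8 and 28.5 FPKM in GCB.

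**Figure D3:**
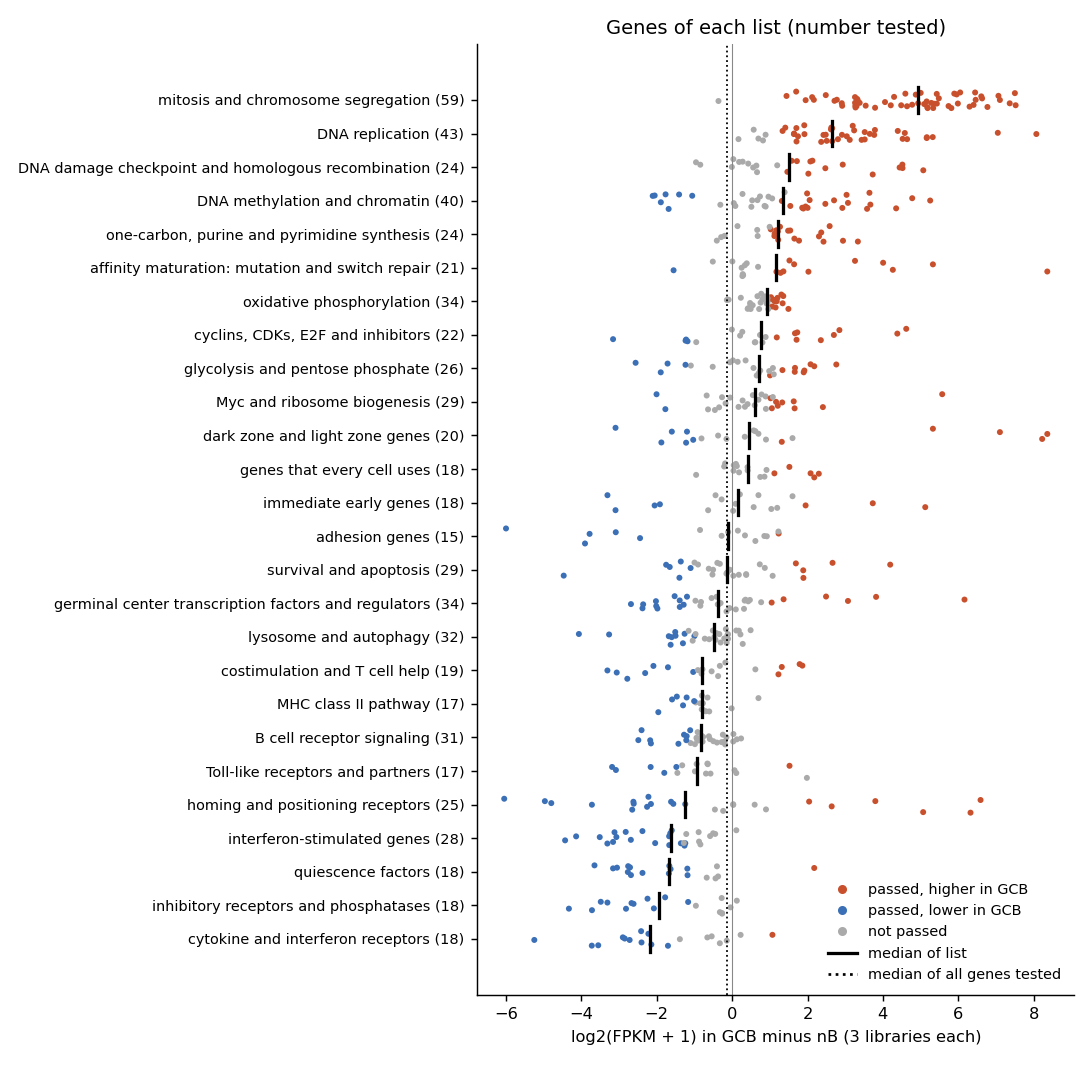
Differences GCB minus nB in log2(FPKM + 1) for the genes of each list with 10 or more tested genes, leaving out the lists of cell type markers (horizontal axis), with a point per gene in red (higher), blue (lower) or grey (not passed), a bar at the list median and a dotted line at the median of all tested genes. Lists are ordered from the mitosis genes (median 4.94) to the cytokine and interferon receptors (median -2.18).

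Of 34 tested transcription factors and regulators of the germinal center, 6 rose (17.6%) and 11 fell (32.4%), with a median of -0.37. Besides Mef2b and Mybl1, the gains were those of Ezh2, the H3K27 methyltransferase (from 3.55 to 8.95 FPKM in nB to 49.99 to 77.7 FPKM in GCB), and of Id2, Ikzf3 and Tcf3, although Tcf3 (1.05 ± 0.34, adjusted p = 0.0382) did not pass when any library other than nB library 2 was left out. Irf4, needed for plasma cell fate, fell from 30.3, 23.4 and 29.5 FPKM to 7.36, 2.18 and 5.47 FPKM. Foxp1, which marks resting B cells, and the NF-kB subunit Nfkb2 fell, with differences of -2.38 and -1.98. Of 8 B lineage genes tested, 3 fell and none rose, among them Pax5, the factor that maintains B cell identity, at 47.7, 54.1 and 55.9 FPKM in nB and 18.3, 15.9 and 12.6 FPKM in GCB. Of 6 plasma cell markers tested, Jchain and Derl3 rose, Irf4 fell and 3 did not pass, including Xbp1 at 42.9, 19.7 and 7.91 FPKM in nB and 15.8, 20.3 and 27.4 FPKM in GCB. Of 20 genes that separate dark zone from light zone, 5 rose and 6 fell, with a median of 0.45. The gains included Polh, Ccnb1 and Gcsam of the dark zone and Cd86 of the light zone, which was at 28.9, 47.2 and 36.8 FPKM in nB and 95.1, 93.4 and 91.9 FPKM in GCB. The losses included Egr3 of the light zone (-3.09 ± 0.56), so light zone genes moved in both directions.

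Among 40 tested genes of DNA methylation and chromatin, 20 rose and 7 fell, with a median of 1.36. The gains included partners of DNA replication, such as Uhrf1, which brings the maintenance methyltransferase to new DNA, the histone chaperone Asf1b and the remodeler Hells. Uhrf1 was at 0.491, 2.83 and 16.2 FPKM in nB, against 182, 176 and 167 FPKM in GCB (5.25 ± 0.71), and the nB libraries were uneven. H2afz, a histone variant, reached 2522, 2402 and 2654 FPKM in GCB from 265 to 357 FPKM. Tet2, which oxidizes methylated cytosine, fell from 9.76, 6.41 and 10.1 FPKM to 1.15, 0.932 and 1.65 FPKM, and Smarca2 fell while its alternative Smarca4, both ATPases of the BAF complex, rose by 1.32 ± 0.23.

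Of 24 genes of one-carbon, purine and pyrimidine synthesis tested, 17 rose and none fell, with a median of 1.22. Psat1, of serine synthesis, was at 7.11, 6.56 and 9.28 FPKM in nB, against 88.4, 78.2 and 90.5 FPKM in GCB, and Mthfd2, of mitochondrial folate metabolism, rose by 2.94 ± 0.31. Of 26 genes of glycolysis and the pentose phosphate pathway tested, 9 rose and 4 fell, with a median of 0.72. Ldha and Pkm, at the end of glycolysis, rose by 1.90 ± 0.10 and 1.92 ± 0.13, while Ldhb fell by 2.56. Of 34 genes of oxidative phosphorylation tested, 12 rose and none fell, with a median of 0.92, and median of ratios scaling called 19. Atp5a1, of ATP synthase, was at 187, 224 and 204 FPKM in nB, against 619, 581 and 535 FPKM in GCB. Of 29 genes of the Myc network and ribosome biogenesis tested, 9 rose and 2 fell, with a median of 0.60, and 1 fell without nB library 1 or 3 or any of the GCB libraries. Myc itself was at 15.6, 22.3 and 20.2 FPKM in nB and 28.1, 30.0 and 37.8 FPKM in GCB (0.70 ± 0.25, adjusted p = 0.0514) and did not pass. Mxd3, a member of the network expressed in S phase, had no read in nB and stood at 39.1, 54.3 and 47.7 FPKM in GCB, at least 156-fold higher. Of 18 genes that every cell uses, 5 rose, with a median of 0.41. None fell by limma, while 1 fell without nB library 2 or GCB library 3. Gapdh, often taken as a reference, was among the gains, from 42.4 to 43.9 FPKM to 182 to 214 FPKM, but near-identical copies make its level uncertain. Actb was at 3821, 2720.3 and 2552 FPKM in nB and 3047, 3249.7 and 2925 FPKM in GCB and did not pass.

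Of 31 genes of B cell receptor signaling tested, 9 fell (29.0%, against 16.1% of all tested genes) and none rose, with a median of -0.82. Cr2, the complement receptor that lowers the threshold of the B cell receptor, was at 209, 208 and 156 FPKM in nB, against 28.0, 44.6 and 28.6 FPKM in GCB (-2.49 ± 0.22). Prkcb and Malt1, which lead from the receptor to NF-kB, fell, with differences of -2.17 and -2.15, while the adaptor Blnk was at 262 to 342 FPKM in nB and 355 to 377 FPKM in GCB and did not pass. Of 18 inhibitory receptors and phosphatases tested, 11 fell and none rose, with a median of -1.93. Cd72 was at 624, 762 and 686 FPKM in nB, against 68.1, 136 and 98.2 FPKM in GCB, and Pirb at 58.1, 66.3 and 64.1 FPKM in nB and 0.947, 6.69 and 1.12 FPKM in GCB. Fcgr2b, the inhibitory Fc receptor, did not pass, with 39.4 to 65.3 FPKM in nB and 35.1 to 55.9 FPKM in GCB.

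Of 17 genes of the MHC class II pathway tested, 6 fell and none rose, with a median of -0.81. Its structural genes remained highly expressed. The invariant chain Cd74 was at 11239, 11163 and 10816 FPKM in nB, against 5849, 6825 and 6756 FPKM in GCB, a difference of -0.78 ± 0.06 that was below the 2-fold limit although its groups did not overlap. Ctss, the protease that trims the invariant chain, fell by 1.96 ± 0.09, and the master regulator Ciita by 1.21 ± 0.18. Of 19 costimulatory genes tested, 4 rose and 7 fell, with a median of -0.79. Icosl, the ligand of ICOS on T cells, was at 189, 249.97 and 259.7 FPKM in nB, against 23.1, 30.4 and 27.3 FPKM in GCB, whereas Slamf7 rose by 1.79 ± 0.21.

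Of 18 cytokine and interferon receptor genes tested, 11 fell, with a median of -2.18. Tgfbr1 rose (1.07 ± 0.37, adjusted p = 0.0469), but it did not pass when any library other than nB library 2 was left out. Il10ra and Il10rb, the chains of the interleukin-10 receptor, both fell, Il10ra from 50.3, 64.3 and 47.3 FPKM to 3.18, 2.32 and 4.06 FPKM and Il10rb from 40.9, 56.2 and 73.7 FPKM to 0.461, 0 and 1.23 FPKM. The common gamma chain Il2rg fell by 2.22 ± 0.13 and remained at 176 to 229 FPKM. Il21r, the receptor for the follicular helper T cell cytokine interleukin-21, did not pass, with 68.2, 124 and 148 FPKM in nB and 77.9, 91.7 and 88.0 FPKM in GCB. Of 28 interferon-stimulated genes tested, 19 fell and none rose, with a median of -1.62. Ifi203 was at 92.0, 67.7 and 81.2 FPKM in nB, against 1.71, 4.45 and 2.54 FPKM in GCB, with reads that related genes of its family could share. Mx1, an antiviral GTPase, fell from 12.9, 14.6 and 11.6 FPKM to 0.209, 0 and 1.32 FPKM, and Ifnar1, a chain of the type I interferon receptor, fell by 2.72 ± 0.34.

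Of 29 survival and apoptosis genes tested, 5 rose (17.2%), 6 fell (20.7%) and 18 did not pass. Fas, which was part of the sort, is counted among the 5. These shares were near those of all tested genes, 12.6% higher and 16.1% lower. The median was -0.13 and turned to 0.02 with median of ratios scaling. Beside the loss of Bcl2, the pro-apoptotic genes Bid and Bad had gains of 1.69 and 1.89. Mcl1, another survival factor, was at 114, 107 and 80.9 FPKM in nB, against 48.0, 40.9 and 28.2 FPKM in GCB (-1.36 ± 0.24). The BAFF receptor Tnfrsf13c was at 427, 433 and 424 FPKM in nB and 377, 434 and 361 FPKM in GCB, with overlapping libraries, while Tnfrsf13b, or TACI, fell by 1.66 ± 0.17. Of 32 lysosome and autophagy genes tested, 10 fell (31.2%) and none rose, with a median of -0.49. Psap, the precursor of the saposins, fell from 151, 134 and 105 FPKM to 14.3, 10.1 and 13.5 FPKM (-3.26 ± 0.23). Of 15 adhesion genes tested, 5 fell (33.3%) and Cd24a rose (2 rose without nB library 2 and 3 without nB library 3). Of 17 Toll-like receptors and partners, 5 fell (29.4%) and 1 rose (2 without nB library 3, none without GCB library 1 or 2). Itgb7, the integrin chain for gut homing, fell by 3.90 ± 0.43, and Tlr1 by 2.16 ± 0.26.

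The summed markers of T cells, NK cells, macrophages or monocytes and dendritic cells were lower in every GCB library than in every nB library, and they varied among the nB libraries. Staining for surface proteins of myeloid and T cells had been used in the sort to discard auto-fluorescent cells. The summed level of 9 T cell markers was 29.3, 38.2 and 75.5 FPKM in nB and 0.722, 6.25 and 3.82 FPKM in GCB, and 4 of the 5 tested fell, the CD3 chains Cd3d, Cd3e and Cd3g among them. The 5 NK cell markers summed to 46.1, 49.9 and 94.8 FPKM in nB and to 0.0379, 2.41 and 0 FPKM in GCB, mostly from Nkg7, and 2 of 4 tested fell (4 without nB library 1). The 11 macrophage or monocyte markers summed to 196, 61.2 and 439 FPKM in nB and 21.1, 17.8 and 15.3 FPKM in GCB. Of the 4 tested, 3 fell, and none rose by limma, while 1 rose without nB library 3. Tyrobp, an adaptor of myeloid and NK cell receptors, gave most of that sum, with 150.2, 50.3 and 342 FPKM in nB and 2.18, 0 and 0 FPKM in GCB. Of the other macrophage or monocyte markers, Adgre1, Cd68 and Fcer1g also had reads enough to be tested, while Csf1r, Cd14, C1qb and C1qc were at 0 in all 6 libraries. Siglech, a marker of plasmacytoid dendritic cells, which carry B220, was at 43.6, 22.6 and 99.1 FPKM in nB and had no read in GCB, at least 366-fold lower. All 8 neutrophil markers were at 0 in all 6 libraries. Tyrobp and Siglech were highest in nB library 3 and lowest in nB library 2, and the summed T and NK cell markers were highest in nB library 3 as well. The dendritic cell markers summed to 45.2, 23.6 and 105 FPKM in nB and 20.6, 17.7 and 16.5 FPKM in GCB. Flt3, a cytokine receptor and the other dendritic cell marker tested, went opposite to Siglech, from 1.02, 0.894 and 3.38 FPKM in nB to 20.1, 17.2 and 16.1 FPKM in GCB (2.87 ± 0.41, adjusted p = 0.000631), and made up nearly all of the GCB sum. The part of such cells in the lower interferon-stimulated, lysosomal, inhibitory receptor, cytokine receptor and homing genes of GCB was not tested. Ifi203, Psap, Pirb, Il10ra and Ccr7 also passed without nB library 3, which left reads of Tyrobp and Siglech in the other nB libraries.

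**Figure D4:**
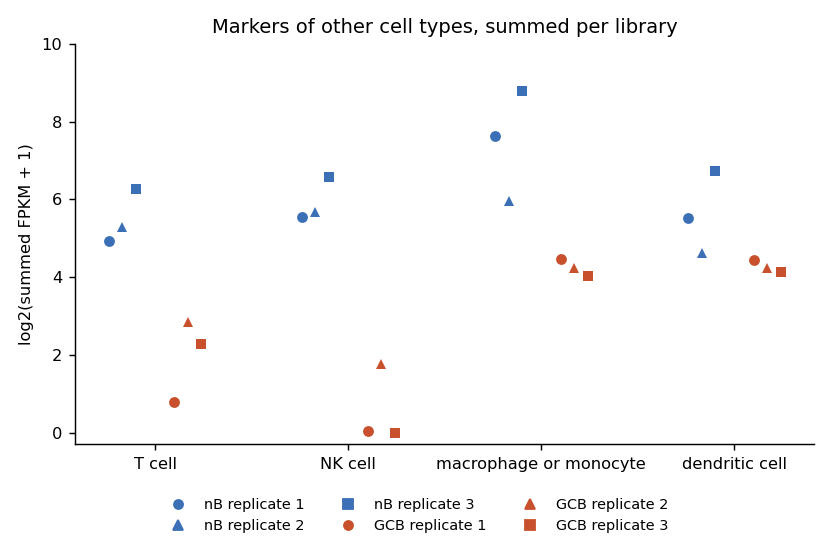
Summed FPKM of 4 marker lists of other cell types as log2(summed FPKM + 1), with a symbol per library, nB in blue and GCB in red. All 4 sums are higher in every nB library than in every GCB library and highest in nB library 3.

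The same comparison was made in Dnmt3-deficient mice (the same floxed alleles with a Cre that deletes both genes in B cells), with 3 libraries per group that were not used above. It covered the 10326 genes that had passed the filter in the Dnmt3-sufficient libraries. Genes expressed only in Dnmt3-deficient cells could therefore not be called, which can raise the shared part of the Dnmt3-deficient calls. The comparison gave 1188 genes higher (11.5%) and 1580 lower (15.3%). Of these, 922 were among the genes called higher in Dnmt3-sufficient cells, which is 71.1% of the Dnmt3-sufficient and 77.6% of the Dnmt3-deficient calls. The lower calls shared 1071 genes, 64.2% and 67.8%. The difference had the opposite sign in Dnmt3-deficient cells for 25 of the genes called higher and 31 of those called lower. In both genotypes 58 of the mitosis genes and 38 of the replication genes rose and 14 naive markers fell. Interferon-stimulated genes fell in 19 cases in Dnmt3-sufficient and 10 in Dnmt3-deficient cells. Polh rose by 5.33 and 2.64, and Cxcr3 differed by 3.80 and 0.87, in Dnmt3-sufficient and Dnmt3-deficient cells respectively. In nB, Polh was at 0.290, 0.304 and 0.690 FPKM in Dnmt3-sufficient and 7.47, 11.7 and 2.84 FPKM in Dnmt3-deficient libraries. Its GCB levels were 49.2 to 68.2 and 42.8 to 51.0 FPKM. In the same order, Cxcr3 was at 2.42, 0 and 1.25 FPKM and 11.8, 19.7 and 5.94 FPKM in nB. In GCB it was at 25.1 to 28.5 and 19.5 to 25.4 FPKM. Neither interaction passed by limma (adjusted p = 0.422 and 0.461). The interaction of stage and genotype was not called for any of 11018 genes by limma (0 calls, 596 genes or 5.41% at an unadjusted p under 0.05, smallest adjusted p = 0.374) or by voom (0 calls, 605 genes). There were 2 calls without Dnmt3-sufficient nB library 2, 1 without Dnmt3-deficient nB library 1 or 3, 1 with a pseudocount of 0.1 and 6 without a filter on low values.

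**Figure D5:**
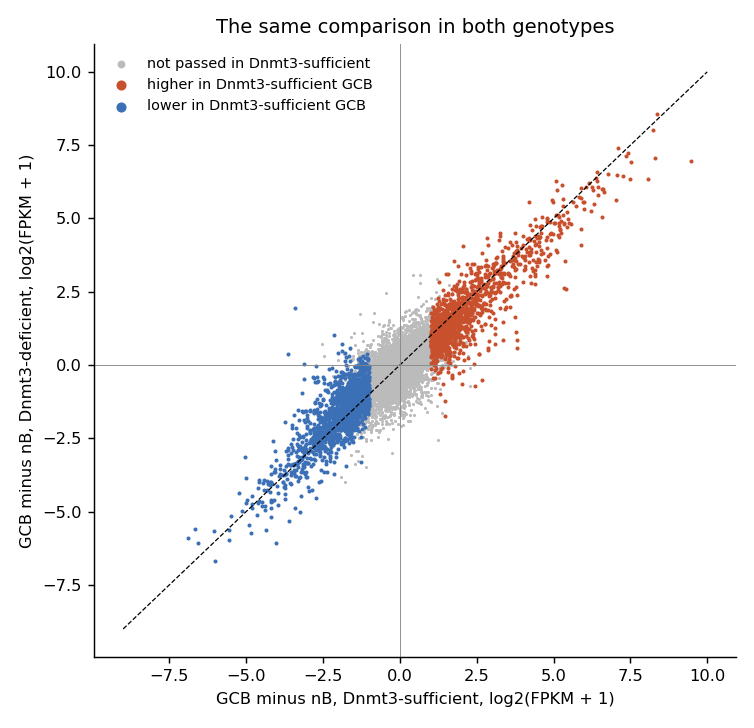
Difference GCB minus nB in log2(FPKM + 1) in Dnmt3-deficient cells (vertical axis) against that in Dnmt3-sufficient cells (horizontal axis), with a point per gene. Of the 1297 genes called higher in Dnmt3-sufficient cells 25 lie below 0 on the vertical axis, and of the 1667 called lower 31 lie above it.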

How the data were processed

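RNA was copied with a SMART-Seq kit, tagged with Nextera and sequenced as pairs. The authors mapped reads to mm9 with TopHat 2.1.1, keeping unique hits, and counted them over exons of UCSC KnownGenes with GenomicAlignments 1.6.3. Use of strand is not stated, which leaves antisense, overlapping and near-identical genes uncertain. From those counts the authors computed the deposited FPKM, scaling by exon length and by the counted reads of a library. Deposited fold changes and FDR of the authors (edgeR 3.12.1, R 3.2.2) were not used. The submitters' notes also name Picard.

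FPKM times exon length gave whole reads (tolerance 0.05) for 100% of values, from which the reads per gene and library were recovered. The table held 21761 genes, 92 without a symbol, and immunoglobulin genes other than Jchain, as well as some other genes that the lists count, are not reported here. Groups were taken from the labels. Differences were tested with limma 3.58.1 (R 4.3.3) on log2(FPKM + 1) of the 6 libraries, moderated with an intensity trend, two-sided, with Benjamini-Hochberg adjustment over the 10326 genes that exceeded an FPKM of 1 in 2 or more of them. The interaction used 12 libraries. Genes were called where the adjusted p did not exceed 0.05 and the difference was 1 or more in either direction. Labels do not say whether libraries of a group came from separate litters or days, so p-values measure the spread between these libraries. A group without reads was set to a floor of 3 reads per library for lower bounds, which, with amplified reads, cover counting error only. Counts between libraries of a group differed by 23.0 to 68.9 per degree of freedom (chi-square), so none was deposited in duplicate.

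The 6 libraries and the gene lists were chosen with earlier results of these data known. Named genes were the 12 largest gains and losses without overlap, list members with the largest change or defining roles, and Mki67, Fcer2a and Ccr7. Promoters were read from RefSeq (GRCm38.p6). The limma fit was also run on simulated counts. These had the same spread setting for every gene and both groups, unlike these libraries, so nothing is concluded from them here. The fit was repeated leaving out each library, with 12 or 18 libraries, with sex as a covariate, with library weights, by voom on the recovered reads, with median of ratios scaling, with 0.1 as the pseudocount, without a filter or with an FPKM above 3 required in 3 libraries, without a fold limit, and with 0.01 as the limit of the adjusted p.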

Additional observations from a re-analysis of the deposited data

How the results depend on the processing

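A fit to all 18 libraries, which takes the spread from plasma cells as well, gave 844 higher and 853 lower genes, against 1297 and 1667. An adjusted p of 0.01 gave 976 lower genes. The other settings moved the counts by less than 1.5 times, and leaving out 1 library gave 1033 to 1325 higher and 1185 to 1671 lower genes, the fewest without GCB library 1. The interaction with genotype gave 1 call with a pseudocount of 0.1, 6 with no filter and 0 to 2 when 1 library was left out. Of 115 named genes that passed, 105 kept their call and direction in every alternative and none reversed. Many of these were named for large changes in the same data, so that share does not extend to all called genes. The fit to all 18 libraries ended the calls of Ccnd3, Cd3e, Cd86, Flt3, Klf4, Ldhb, Tcf3 and Tgfbr1, and voom that of Tyrobp (adjusted p = 0.0698). The fit to 18 libraries also lowered counts of lists by over 1.5 times, to 5 lower for B cell receptor signaling, 2 for MHC class II, 4 for costimulation (2 higher), 2 for T cell markers, 3 each for survival and for dark and light zone genes, 1 each for cyclins and glycolysis (5 higher) and 0 for Myc, and to 7 higher for mutation and switch repair, 11 for one-carbon synthesis and 0 for quiescence factors, dendritic cell markers, cytokine receptors and Toll-like receptors. Without a fold limit, 18 genes of B cell receptor signaling, 13 of MHC class II and 7 of the B lineage were lower and 26 of oxidative phosphorylation, 14 of glycolysis and 9 that every cell uses were higher, with 1 of the last lower. At an adjusted p of 0.01, 5 cyclin genes were higher and 2 lower, 1 glycolysis gene was lower, and Smug1, Tcf3 and Tgfbr1 were lost. Library weights gave 8 lower and 2 higher Toll-like receptor genes, 2 higher adhesion genes and, like the fit to 12 libraries, 4 lower NK cell markers. The fit to 12 libraries called 5 immediate early genes higher, and voom called 2 DNA damage genes lower. Differences close to 0 that had not passed changed sign. Median of ratios gave 0.085 for Ms4a1, 0.022 for Tnfrsf13c and 0.055 for Cdkn1a, and a pseudocount of 0.1 gave 0.038 for Cdkn1a. Library weights gave -0.0014 for Xbp1. With 1 library left out, the differences ranged from -0.070 to 0.22 for Actb, from -0.52 to 0.53 for Cdkn1a, from -0.0054 to 0.35 for Cdt1 and from -0.48 to 0.67 for Xbp1. The cause was not tested. No paired analysis was made, because nB came from unimmunized mice and GCB from immunized mice, so the groups shared no mouse. The labels also carry no replicate numbers shared between nB and GCB. The precision is limited by 3 libraries per group and by the wider spread in nB.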
